A study of Mus musculus with 9 samples.

Results

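The 30 genes described here encode the subunits of the mammalian SWI/SNF chromatin remodelling complexes. They were taken from a fixed list of subunit symbols, matched to 30 of the 35288 Ensembl genes in the count table, and sorted by the complex that holds them. The core set had 15 genes, the BAF set 8, the PBAF set 4 and the ncBAF set 3. Each gene was placed in 1 set, so that Smarcb1 and Smarce1, which ncBAF lacks, stand in the core set, and Ss18 and Ss18l1, which ncBAF also holds, stand in the BAF set. RNA-seq was done in the murine cell line T15, a Smarcb1-negative peripheral T-cell lymphoma (PTCL) line from which all groups derive, and a total of 9 libraries were available, 3 of each group. Control T15 cells are called untreated in the study's text, whereas the labels describe a vehicle for the drug experiment and a Smarcb1-negative plasmid for the re-expression experiment, without saying which the 3 control libraries received. SAHA cells were given suberoylanilide hydroxamic acid (vorinostat, an inhibitor of histone deacetylases) at 1 µM over 72 h. Smarcb1-RE cells carried a lentiviral Smarcb1 cDNA (pInducer20), were selected with G418 and were induced with doxycycline (Dox, 0.5 µg/µl) for 72 h. Transduction, selection and Dox therefore cannot be told apart from Smarcb1 itself where Smarcb1-RE is set against control. The methods mention several stable clones, and whether the 3 Smarcb1-RE libraries came from 1 or more of them, like the derivation of T15, is not given in the sources used here.

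SWI/SNF complexes use the energy of ATP to slide or evict nucleosomes and so open promoters and enhancers to other factors. Each complex is built around an ATPase (Smarca4 or Smarca2), a scaffold of Smarcc and Smarcd proteins and actin-related subunits, to which ARID, PHD finger and bromodomain proteins are added that set BAF, PBAF and ncBAF apart. Smarcb1 holds the nucleosome on the face opposite the ATPase, belongs to BAF and PBAF but not to ncBAF, and is the subunit lost in rhabdoid tumors. Many positions in the complex can be filled by either of a few paralogous proteins, and the choice among them changes as cells differentiate.

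Library totals ranged from 20900477 to 24941494 counts. After TMM scaling, 3 counts, taken here as the limit of detection, were worth 0.123 to 0.133 CPM (counts per 1000000 counts in a library). Of 10 T-cell markers, 9 were above that limit in every library, Cd2 was at or under it and Cd4 was at 0 in every library. Summed T-cell marker levels were 3509 to 3625 CPM in control, 3934 to 3975 in SAHA and 3567 to 3639 in Smarcb1-RE. Of 9 tested T-cell markers, 4 were higher and 3 lower in SAHA at an adjusted p under 0.05 in edgeR (32.6% and 34.3% of all genes tested). In Smarcb1-RE, 3 were higher and 4 lower (39.2% and 38.6% of all genes). Some markers of other cells moved with a group as well. The 5 fibroblast markers summed to 6.34 to 8.88 CPM in control, 6.76 to 7.06 in SAHA and 66.35 to 68.56 in Smarcb1-RE, nearly all of it Pdgfra, with Dcn and Pdgfrb at or under the limit in every library. The 4 neural markers summed to 46.75 to 48.77, 143.8 to 149.4 and 40.91 to 42.72 CPM, mostly Snap25. Pax5 was at 0 to 0.254 CPM in control, 0.486 to 0.953 in SAHA and 3.79 to 4.07 in Smarcb1-RE, and Ms4a1 at 0.719 to 0.905, 0.707 to 0.818 and 3.37 to 3.76 CPM. Epcam, an epithelial marker, was at 0.719 to 1.23 CPM in control, 2.34 to 3.32 in SAHA and 0 to 0.128 in Smarcb1-RE. The 4 epithelial markers summed to at most 3.36 CPM and the 7 myeloid markers to at most 0.765 CPM in any library. Their part in the results was not tested, and in bulk RNA fewer cells of a type and less RNA per cell cannot be told apart. Control replicate 1 stood apart, with a chi-square per gene of 13.4 and 15 against the other control libraries, compared with 2.08 to 4.69 for the other pairs of replicates. Calls that changed without it, and called values that moved by more than 1.5 times, are given with and without it.

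In control cells, subunit transcripts spanned a wide range of levels per length, expressed as CPM per kilobase of exon. Actb, which encodes the beta-actin monomer that sits in the complex as well as in the cytoskeleton, was at 1240 ± 29.5 (SD, n = 3). The next members were Smarca4 at 54.5 ± 0.907, Arid1a at 41.1 ± 4.03, Smarcd2 at 39.9 ± 1.71 and Smarcc1 at 37.7 ± 3.55 CPM per kilobase. The last 3 of these were closer to each other than the spread of Arid1a and Smarcc1. Most BAF, PBAF and ncBAF genes lay between 3.66 (Arid1b) and 18.6 (Dpf2) CPM per kilobase. Low levels were found for Ss18l1 (0.614 ± 0.100), Smarcd3 (0.277 ± 0.0631), Dpf1 (0.229 ± 0.0345), Dpf3 (0.0894 ± 0.0360) and Smarcb1 (0.0263 ± 0.0154 CPM per kilobase). Actl6b, the neuronal partner of Actl6a, had 0 counts in every library, and Bcl11a, a zinc finger protein of BAF, had 0 in every control library. The order depended on the length used: with the longest coding sequence in place of the exons, Smarca4 went from rank 2 to rank 8 and Actl6a from rank 7 to rank 2.

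**Figure D1:**
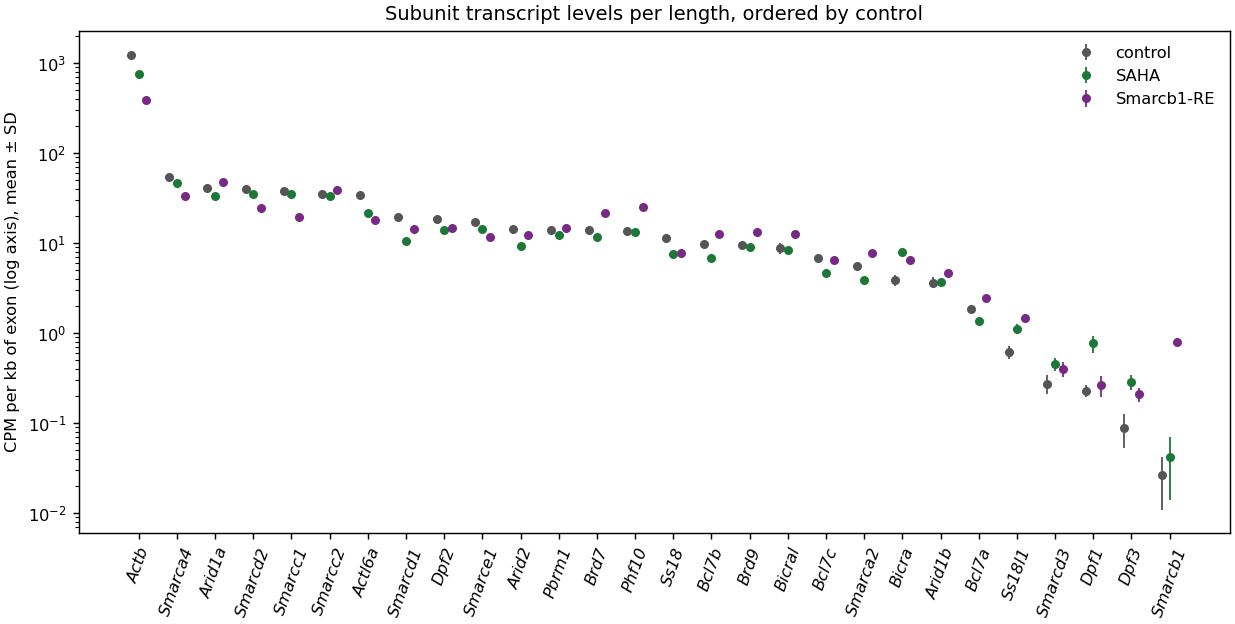
Levels of 28 subunit genes per length (CPM per kilobase of exon, log axis) in control, SAHA and Smarcb1-RE cells, ordered by the control level; points are means and bars SD of 3 libraries. Actb lies far above the others at 1240 in control, and Smarcb1 lies lowest in control and SAHA but reaches 0.802 in Smarcb1-RE.

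Of the 30 members, 28 passed the filter on low counts and were tested; Actl6b and Bcl11a were not. In SAHA against control, 5 of the 28 members were called higher (17.9%, against 32.6% of all 13697 genes tested) and 16 lower (57.1%, against 34.3%) at an adjusted p under 0.05. In Smarcb1-RE against control, 14 were higher (50%, against 39.2%) and 10 lower (35.7%, against 38.6%). The median log2 fold change over the members was -0.20 in SAHA and 0.22 in Smarcb1-RE, with 0.00 and 0.01 over all genes tested. Both comparisons use the same 3 control libraries. Each count of members higher or above in Smarcb1-RE in this paragraph includes Smarcb1, which the vector supplied. In the direct comparison of Smarcb1-RE with SAHA, 16 members were higher (against 37.7% of all genes) and 8 lower (against 36.8%), with a median of 0.30 against 0.02 over all genes. Counted by libraries that do not overlap, 5 members lay above and 15 below control in SAHA (33.8% and 34.9% of all genes), 14 above and 9 below control in Smarcb1-RE (40.4% and 39.1%), and 17 above and 8 below SAHA in Smarcb1-RE (40.7% and 39.2%). Without control replicate 1, where Bcl11a passed the filter too and was called higher in both treatments, 6 members were higher and 19 lower in SAHA and 15 higher and 10 lower in Smarcb1-RE. The shares of all genes in that setting are not given here, so these counts cannot be set against them. With an absolute log2 fold change of at least 0.5 required as well, 5 members were higher and 8 lower in SAHA (19.6% and 13% of all genes), 8 higher and 7 lower in Smarcb1-RE (27.6% and 21.7%), and 9 higher and 4 lower in Smarcb1-RE against SAHA (24.1% and 21.2%).

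The calls are also given for each set, to be read against the shares of all genes above. The core had 1 member higher and 10 lower of 14 tested in SAHA, and 5 higher and 7 lower in Smarcb1-RE. With Smarcb1 left out, 4 of 13 tested core genes were higher and 7 lower in Smarcb1-RE. Of 7 tested BAF genes, 3 were higher and 3 lower in SAHA, and 4 higher and 2 lower in Smarcb1-RE. For PBAF, 0 genes were higher in SAHA (edgeR and DESeq2, as every value was below 0) and 3 of 4 were lower, whereas 2 were higher and 1 lower in Smarcb1-RE. For ncBAF, 1 of 3 genes was higher and 0 lower in SAHA (edgeR and DESeq2, also with 0 at an unadjusted p under 0.05), and all 3 were higher in Smarcb1-RE. The differences between these sets were described by counts and not tested.

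**Figure D2:**
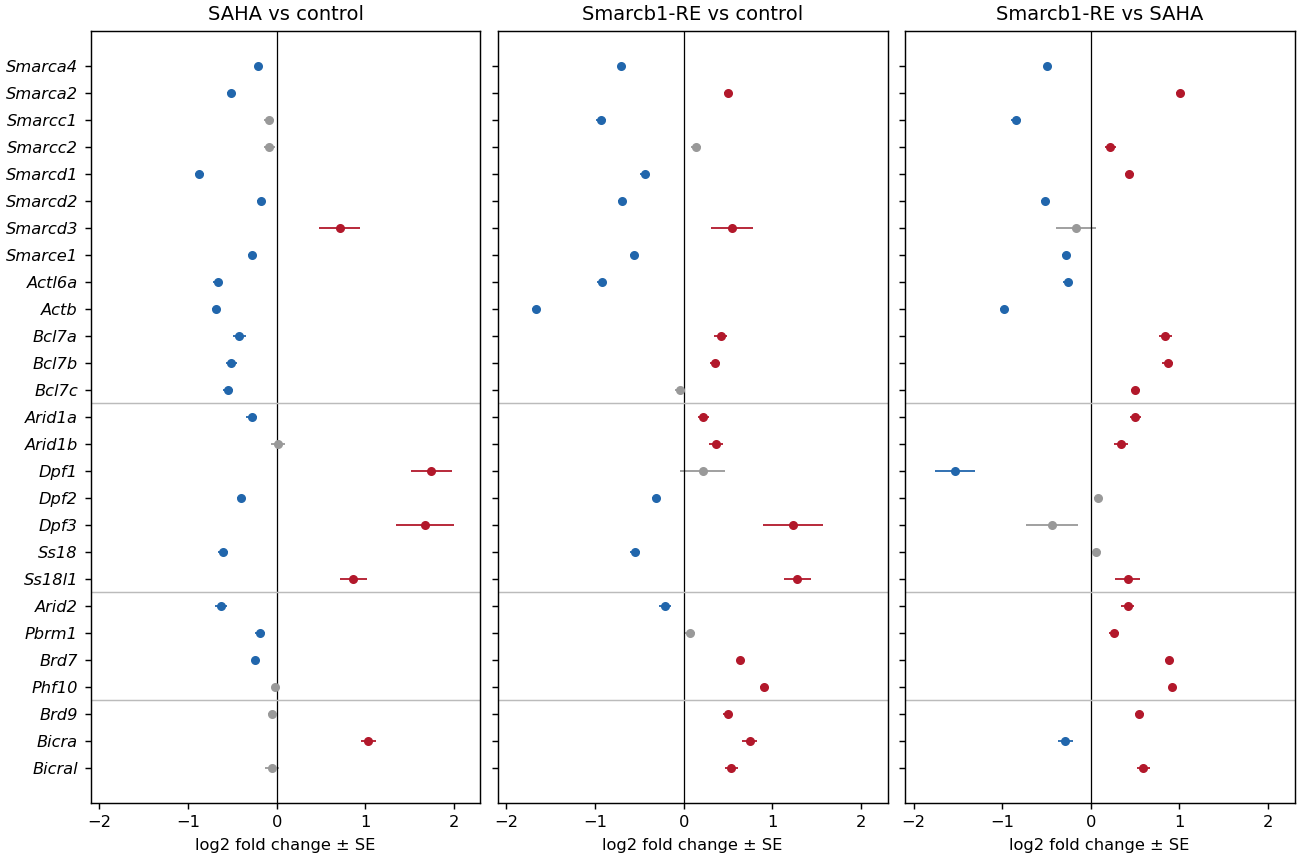
Log2 fold change with its standard error of 27 tested subunit genes in the 3 comparisons (Smarcb1 is left out, as its value of 4.89 lies off the axis); red and blue mark genes called higher or lower at an adjusted p under 0.05, grey those not called, and lines separate core, BAF, PBAF and ncBAF. The PBAF and ncBAF genes lie at or left of 0 in SAHA except Bicra, and mostly right of 0 in Smarcb1-RE.

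Smarcb1 (minus strand, chr10:75896769-75921617 in GENCODE M21, GRCm38), the subunit whose loss defines the line, was close to the detection limit outside the Smarcb1-RE group. Its rounded counts were 2, 5 and 8 in control, 7, 13 and 3 in SAHA, versus 151, 147 and 142 in Smarcb1-RE. All Smarcb1-RE libraries lay far above the other 6, and control and SAHA overlapped. The log2 fold change was 4.89 against control (SE 0.362, adjusted p = 6.19e-08) and 4.23 against SAHA (SE 0.339, adjusted p = 1.46e-07) in edgeR's quasi-likelihood test, while that of SAHA against control (0.66, SE 0.525, adjusted p = 0.285) missed the threshold. The level of Smarcb1 after re-expression depended on the length by which it was divided. Per kilobase of exon it reached 6.79% ± 0.222 (SD, n = 3) of the level of Smarce1, the HMG-box subunit that is likewise confined to BAF and PBAF. With coding length for both genes the share was 8.64%. The length of the cDNA is not given in the sources used here, and with coding length for Smarcb1 and exonic length for Smarce1, a choice made after seeing the data, the share was 46.6%. The gene-level counts do not separate reads of the cDNA from those of the chromosomal locus. The 150 bases upstream of the annotated start of that locus, on the gene's strand at chr10:75921618-75921767 (GRCm38.p6, RefSeq), are shown because the chromosomal promoter is not the one that drives the cDNA. In this and the following promoter sequences, capitals mark GC boxes (GGGCGG, or CCGCCC for the opposite strand) and CCAAT boxes (CCAAT or ATTGG).
Smarcb1: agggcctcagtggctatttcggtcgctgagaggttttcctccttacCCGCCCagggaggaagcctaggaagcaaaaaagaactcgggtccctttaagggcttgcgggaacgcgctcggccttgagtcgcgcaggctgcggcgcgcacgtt

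The ATPase genes changed in opposite directions in Smarcb1-RE cells. Smarca4 (BRG1), the main ATPase of the complexes in proliferating cells, measured 346, 357 and 356 CPM in control, 312, 297 and 309 in SAHA, versus 214, 222 and 215 in Smarcb1-RE. The 3 groups did not overlap, with Smarcb1-RE lowest. Its log2 fold change was -0.21 in SAHA (SE 0.0372, adjusted p = 0.000295) and -0.70 in Smarcb1-RE (SE 0.0376, adjusted p = 3.04e-09, edgeR). Smarca2 (BRM), the alternative ATPase, measured 76.5, 82.0 and 80.2 CPM in control, 54.3, 56.5 and 56.5 in SAHA, versus 110, 116 and 112 in Smarcb1-RE. SAHA libraries were lowest and Smarcb1-RE libraries highest, again without overlap, and the log2 fold changes were -0.51 (SE 0.0436, adjusted p = 4.97e-07) and 0.50 (SE 0.042, adjusted p = 2.14e-07, edgeR). The log2 ratio of Smarca2 to Smarca4 within a library, which does not depend on library scaling, was 0.30 lower in SAHA than in control and 1.20 higher in Smarcb1-RE. Per kilobase of exon, Smarca2 made up 9.27% ± 0.16 of ATPase transcripts in control, 7.65% ± 0.32 in SAHA and 19% ± 0.16 in Smarcb1-RE (SD, n = 3). With coding length the shares were 18.5%, 15.6% and 34.3%, so the size of the share rests on the length chosen and its order does not. The promoters of the pair are shown for this contrast, with Smarca4 at chr9:21616019-21616168 and Smarca2 at chr19:26604910-26605049, both on the plus strand of GRCm38.p6 (RefSeq) and ending at the base before the annotated start. Each held 1 GC box and no CCAAT box in the stretch printed.
Smarca4: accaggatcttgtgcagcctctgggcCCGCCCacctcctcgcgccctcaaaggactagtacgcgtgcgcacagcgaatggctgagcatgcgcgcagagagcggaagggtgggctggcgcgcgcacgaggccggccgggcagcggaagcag
Smarca2: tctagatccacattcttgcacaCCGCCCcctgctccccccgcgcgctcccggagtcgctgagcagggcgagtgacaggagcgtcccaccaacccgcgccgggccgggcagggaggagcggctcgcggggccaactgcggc

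Among the scaffold genes, the Smarcc pair shifted in Smarcb1-RE cells. Smarcc1 (BAF155), which dimerises to form the base of the complex, measured 264, 317 and 304 CPM in control, 275, 275 and 282 in SAHA, versus 153, 158 and 153 in Smarcb1-RE. Smarcb1-RE libraries lay below all others, whereas SAHA overlapped control through control replicate 1. The log2 fold change in Smarcb1-RE was -0.93 (SE 0.0584, adjusted p = 1.3e-08, edgeR). In SAHA it was -0.09 (adjusted p = 0.187), and without control replicate 1 it was -0.17 (adjusted p = 0.000594, edgeR). Smarcc2 (BAF170), its paralogue, had log2 fold changes of -0.08 (adjusted p = 0.237) in SAHA, next to 0.14 (adjusted p = 0.054) in Smarcb1-RE, neither of which passed the threshold in edgeR's test. Without control replicate 1 the value in SAHA was -0.17 (adjusted p = 0.0012, edgeR) and that in Smarcb1-RE was 0.05. Smarcc2 in Smarcb1-RE was called with the replicate number as a block (adjusted p = 0.026), with library totals as the only scaling (0.30, adjusted p = 0.00107), with at least 10 counts in every library (0.19, adjusted p = 0.00804) and without control replicate 3 (0.17, adjusted p = 0.0364, edgeR). The ratio of Smarcc2 to Smarcc1 was less affected by that library: it differed from control by 0.00 (log2) in SAHA and by 1.07 in Smarcb1-RE. Smarcc2 thus made up 48.7% ± 0.64, 48.7% ± 0.47 and 66.5% ± 0.66 of the pair per kilobase of exon in control, SAHA and Smarcb1-RE (SD, n = 3). With coding length these shares were 37.9%, 38% and 56.2%.

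The Smarcd genes encode the BAF60 proteins, which connect the complexes to transcription factors. Smarcd1 measured 73.9, 81.2 and 79.7 CPM in control, 43.5, 40.6 and 44.1 in SAHA, versus 58.8, 58.3 and 56.0 in Smarcb1-RE. SAHA libraries were the lowest and control the highest (log2 fold change -0.87, SE 0.0501, adjusted p = 1.79e-08 in SAHA, next to -0.44, SE 0.0489, adjusted p = 2.99e-06 in Smarcb1-RE, edgeR). Smarcd2, the most abundant BAF60 gene per length, measured 139, 150 and 140 CPM in control, 128, 124 and 127 in SAHA, versus 88.4, 85.9 and 90.2 in Smarcb1-RE. Here Smarcb1-RE was lowest (log2 fold change -0.70, SE 0.0418, adjusted p = 8.38e-09) and SAHA only slightly below control (-0.18, SE 0.041, adjusted p = 0.00192, edgeR). Smarcd3, the form found in heart and neurons, was rare, at 1.79, 1.27 and 1.19 CPM in control, 1.91, 2.61 and 2.46 in SAHA, versus 2.43, 1.68 and 2.07 in Smarcb1-RE. It was higher in SAHA without overlap (log2 fold change 0.71, SE 0.232, adjusted p = 0.0161, edgeR). The call in Smarcb1-RE (0.54, adjusted p = 0.0497, edgeR) came with overlapping libraries. That call was lost under DESeq2 (adjusted p = 0.0865) and with the replicate block (adjusted p = 0.0686, edgeR). Median-ratio factors (adjusted p = 0.051), no filter (adjusted p = 0.0815) and fits of 2 groups alone (adjusted p = 0.0567, edgeR) lost it as well. So did leaving out any of several single libraries (adjusted p up to 0.189, edgeR). Without control replicate 3 or without SAHA replicate 2 the call in SAHA was lost too (adjusted p = 0.0569 and 0.0584, edgeR). The log2 ratio of Smarcd2 to Smarcd1 was 0.69 above control in SAHA and 0.26 below it in Smarcb1-RE.

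Smarce1, Actl6a and Actb were lower in both treatments. Smarce1 measured 123, 111 and 114 CPM in control, 94.3, 95.5 and 96.5 in SAHA, versus 77.3, 80.1 and 78.4 in Smarcb1-RE, in that order without overlap. Its log2 fold change was -0.28 in SAHA (SE 0.0437, adjusted p = 0.000101) and -0.56 in Smarcb1-RE (SE 0.0441, adjusted p = 1.14e-07, edgeR). Actl6a (BAF53A), the actin-related subunit of dividing progenitors that Actl6b replaces in neurons, measured 139, 137 and 128 CPM in control, 90.9, 81.1 and 82.6 in SAHA, versus 71.9, 71.6 and 68.8 in Smarcb1-RE. Again the groups did not overlap (log2 fold change -0.66, SE 0.0509, adjusted p = 2e-07 in SAHA, next to -0.93, SE 0.0516, adjusted p = 4.34e-09 in Smarcb1-RE, edgeR). Actb showed the largest fall of any tested member in Smarcb1-RE. It measured 3302, 3409 and 3254 CPM in control, 2134, 1998 and 2067 in SAHA, versus 1075, 1018 and 1042 in Smarcb1-RE. This corresponded to a 1.61-fold lower level in SAHA (log2 fold change -0.68, SE 0.0401, adjusted p = 2.08e-08) and a 3.18-fold lower level in Smarcb1-RE (-1.67, SE 0.0411, adjusted p = 6.46e-12, edgeR). Actb has near-identical copies elsewhere in the genome, so its counts depend on how shared reads were divided, and most actin is used outside SWI/SNF. The share of all counts that fell on the 30 members was 0.567% to 0.608% in control, 0.419% to 0.438% in SAHA and 0.395% to 0.396% in Smarcb1-RE, of which Actb alone took 0.315% to 0.328%, 0.193% to 0.206% and 0.110% to 0.115%.

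The BCL7 genes encode small subunits that bind near the ATPase. Bcl7a measured 16.5, 17.7 and 18.5 CPM in control, 14.4, 12.9 and 12.1 in SAHA, versus 23.6, 22.8 and 24.1 in Smarcb1-RE. Bcl7b measured 24.5, 23.8 and 22.8 CPM in control, 17.4, 16.3 and 16.1 in SAHA, versus 29.5, 32.0 and 29.5 in Smarcb1-RE. Both were lowest in SAHA and highest in Smarcb1-RE without overlap. In edgeR's test, Bcl7a changed by -0.42 (SE 0.0752, adjusted p = 0.000279) and 0.42 (SE 0.071, adjusted p = 0.000138), and Bcl7b by -0.51 (SE 0.0598, adjusted p = 7.76e-06) and 0.36 (SE 0.0564, adjusted p = 7.81e-05), in SAHA and Smarcb1-RE respectively. Bcl7c measured 51.9, 48.3 and 47.5 CPM in control, 32.0, 35.8 and 33.3 in SAHA, versus 48.6, 47.6 and 46.9 in Smarcb1-RE. It was lower in SAHA (log2 fold change -0.55, SE 0.0531, adjusted p = 1.54e-06), while Smarcb1-RE overlapped control (-0.05, adjusted p = 0.438, edgeR).

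**Figure D3:**
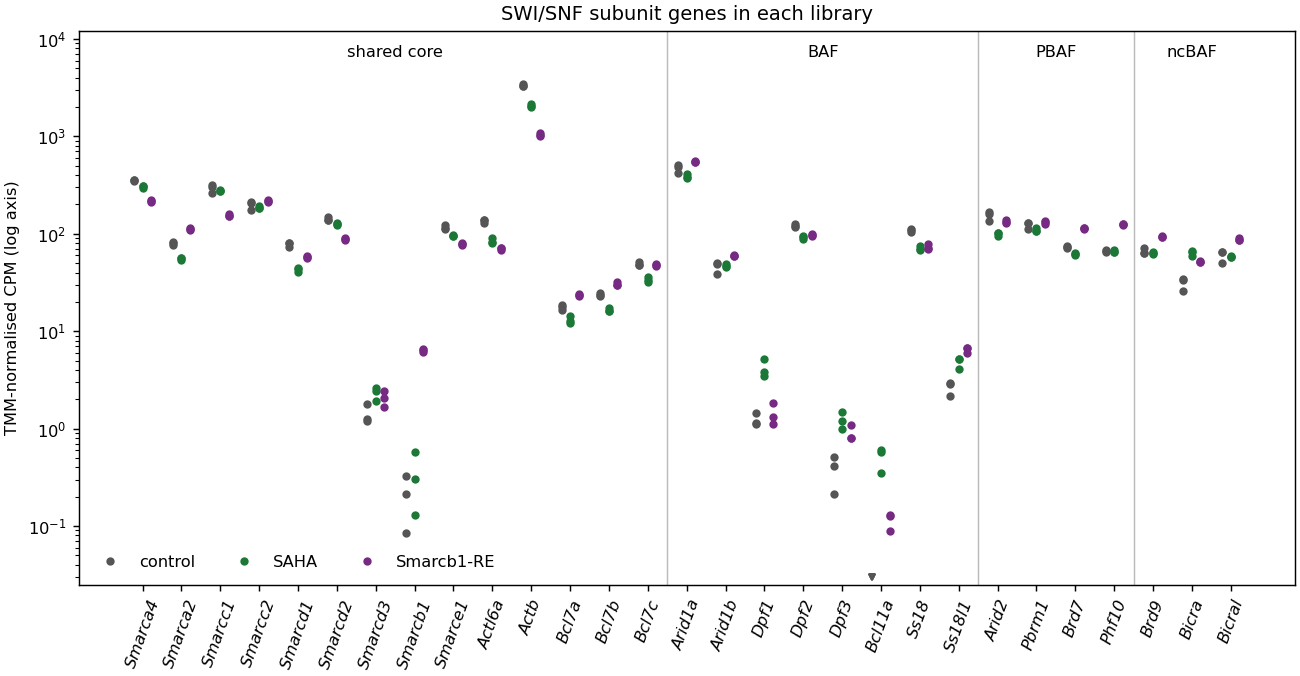
TMM-normalised CPM (log axis) of 29 subunit genes in each of the 9 libraries, grouped into core, BAF, PBAF and ncBAF; each point is a library, and the triangle marks the control libraries of Bcl11a, which had 0 counts. Replicates lie close together for genes above 10 CPM, and the Smarcb1 points of Smarcb1-RE (6.12 to 6.51) stand clear of the others.

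Within the BAF set, the ARID1 genes encode the large DNA-binding subunits that define this complex. Arid1a, the most abundant gene of the BAF set per kilobase of exon, though below Dpf2 and Ss18 per coding length, measured 420, 484 and 509 CPM in control, 407, 373 and 384 in SAHA, versus 550, 541 and 555 in Smarcb1-RE. SAHA lay below and Smarcb1-RE above control without overlap. The log2 fold change was -0.28 in SAHA (SE 0.062, adjusted p = 0.00147) and 0.22 in Smarcb1-RE (SE 0.0617, adjusted p = 0.00566), and without control replicate 1 the latter was 0.14 (adjusted p = 0.00638, edgeR). Arid1a lies on chromosome 4. The median log2 fold change of 674 genes there was 0.29 in Smarcb1-RE, against -0.10 for 9661 genes on other autosomes. The part of this shift in the Arid1a value was not tested, and no such median was computed for the chromosomes of the other members. Arid1b, the alternative ARID1 protein, had a log2 fold change of 0.02 in SAHA (adjusted p = 0.848) and rose by 0.36 in Smarcb1-RE (SE 0.0781, adjusted p = 0.00097, edgeR), with 0.24 without control replicate 1. Arid1a made up between 89.7% and 92.2% of ARID1 transcripts per kilobase of exon in every library.

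The DPF genes encode PHD finger proteins that read acetylated histones, of which Dpf2 is the widely expressed form and Dpf1 and Dpf3 are known from neurons and muscle. Dpf2 was lower in both treatments (log2 fold change -0.40, SE 0.0451, adjusted p = 5.72e-06 in SAHA, next to -0.31, SE 0.0449, adjusted p = 3.21e-05 in Smarcb1-RE, edgeR). Dpf1 measured 1.45, 1.14 and 1.11 CPM in control, 3.81, 5.17 and 3.45 in SAHA, versus 1.84, 1.33 and 1.12 in Smarcb1-RE. SAHA libraries stood above the other 6, which overlapped among themselves. The level in SAHA was 3.35-fold that of control (SE of the log2 value 0.234, adjusted p = 2.59e-05), whereas Smarcb1-RE differed from control by 0.21 (log2, adjusted p = 0.457) and from SAHA by -1.53 (SE 0.23, adjusted p = 5.24e-05, edgeR). Dpf3 measured 0.510, 0.211 and 0.411 CPM in control, 0.996, 1.19 and 1.46 in SAHA, versus 0.811, 0.797 and 1.08 in Smarcb1-RE. Both treatments lay above control (log2 fold change 1.68, SE 0.33, adjusted p = 0.000615 in SAHA, next to 1.23, SE 0.341, adjusted p = 0.00515 in Smarcb1-RE, edgeR) and overlapped each other. Despite these changes, Dpf2 remained the main form, and Dpf1 made up 1.22% ± 0.22 of DPF transcripts per kilobase of exon in control, 5.1% ± 1.3 in SAHA and 1.71% ± 0.39 in Smarcb1-RE (SD, n = 3). The promoters of both low genes are shown because they were among the 5 members with a CCAAT box. Dpf2, which fell in both treatments, was another of these 5. Dpf1 is given at chr7:29303801-29303950 (plus strand) with 1 GC box and 1 CCAAT box, and Dpf3 at chr12:83487737-83487886 (minus strand) with 1 GC box and 2 CCAAT boxes (GRCm38.p6, RefSeq).
Dpf1: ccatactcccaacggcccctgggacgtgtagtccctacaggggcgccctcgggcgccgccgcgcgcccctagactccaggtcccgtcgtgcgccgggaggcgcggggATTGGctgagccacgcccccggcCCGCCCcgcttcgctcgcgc
Dpf3: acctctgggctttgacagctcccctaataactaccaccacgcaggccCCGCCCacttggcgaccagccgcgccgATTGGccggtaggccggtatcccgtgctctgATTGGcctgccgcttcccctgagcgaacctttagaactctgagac

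Ss18 and Ss18l1 (CREST), subunits of BAF and ncBAF known from synovial sarcoma and from neurons, moved in opposite directions. Ss18 measured 104, 111 and 109 CPM in control, 75.0, 67.9 and 69.3 in SAHA, versus 71.4, 70.1 and 79.0 in Smarcb1-RE. Both treatments lay below control and overlapped each other (log2 fold change -0.61, SE 0.0552, adjusted p = 8.8e-07 in SAHA, next to -0.55, SE 0.0551, adjusted p = 1.06e-06 in Smarcb1-RE, edgeR). Ss18l1 measured 2.17, 2.87 and 2.96 CPM in control, 5.24, 5.22 and 4.14 in SAHA, versus 6.78, 6.73 and 5.99 in Smarcb1-RE. Its libraries were in the order control, SAHA, Smarcb1-RE without overlap, with a log2 fold change of 0.86 (SE 0.154, adjusted p = 0.000284) in SAHA, next to 1.28 (SE 0.15, adjusted p = 5.03e-06, edgeR) in Smarcb1-RE. The call between the treatments (0.42, adjusted p = 0.0172) was lost without SAHA replicate 3 (adjusted p = 0.0772), Smarcb1-RE replicate 1 (adjusted p = 0.0642) or Smarcb1-RE replicate 2 (adjusted p = 0.0533, edgeR). Ss18l1 made up 5.08% ± 0.65 of the pair per kilobase of exon in control, 13% ± 1.4 in SAHA and 16.1% ± 1.8 in Smarcb1-RE (SD, n = 3). Bcl11a had 8, 13 and 14 counts in SAHA and 3, 2 and 3 in Smarcb1-RE. Against the limit of 3 counts per control library, its mean in SAHA was at least 3.98-fold higher. Bcl11b, the paralogue that T cells use, was slightly lower in both treatments (log2 fold change -0.29 in SAHA and -0.13 in Smarcb1-RE, both called by edgeR), with overlapping libraries in Smarcb1-RE.

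PBAF differs from BAF by Arid2, by the multi-bromodomain protein Pbrm1 (BAF180) and by Brd7 and Phf10. Phf10 (BAF45A) measured 69.0, 66.3 and 65.8 CPM in control, 65.6, 68.6 and 64.6 in SAHA, versus 126, 124 and 125 in Smarcb1-RE. Control and SAHA overlapped (log2 fold change -0.02, adjusted p = 0.744), and all Smarcb1-RE libraries lay well above them (0.90, SE 0.0397, adjusted p = 5.62e-10, edgeR). This was the largest rise among tested members above 10 CPM in Smarcb1-RE. Brd7 measured 75.8, 72.5 and 71.4 CPM in control, 61.9, 63.2 and 60.8 in SAHA, versus 116, 112 and 114 in Smarcb1-RE. SAHA lay below and Smarcb1-RE above control without overlap (log2 fold change -0.24, SE 0.0408, adjusted p = 0.000193 and 0.64, SE 0.0396, adjusted p = 1.18e-08, edgeR). Arid2 carries the ARID domain of PBAF, and its level per kilobase of exon in control (14.4 ± 1.7) was within 1 SD of those of the other PBAF genes. It measured 134, 160 and 169 CPM in control, 103, 95.4 and 101 in SAHA, versus 129, 138 and 133 in Smarcb1-RE. SAHA lay below all other libraries (log2 fold change -0.63, SE 0.0717, adjusted p = 6.58e-06), whereas Smarcb1-RE overlapped control (-0.21, SE 0.0707, adjusted p = 0.0157, edgeR). The latter call was lost with library totals as the only scaling (adjusted p = 0.535), without control replicate 3 (adjusted p = 0.0649) or without Smarcb1-RE replicate 1 (adjusted p = 0.054, edgeR), and the value was -0.31 without control replicate 1. Pbrm1 was slightly lower in SAHA (-0.19, SE 0.057, adjusted p = 0.011) with overlapping libraries, a call that was lost without control replicate 2 or 3 (adjusted p = 0.055 and 0.051), and was at 0.07 in Smarcb1-RE (adjusted p = 0.243, edgeR). It was called higher there with library totals as the only scaling (0.23, adjusted p = 0.00379) and with at least 10 counts in every library (0.13, adjusted p = 0.0448, edgeR). Compared directly, all 4 PBAF genes were higher in Smarcb1-RE than in SAHA, by 0.26 (Pbrm1) to 0.92 (Phf10) on the log2 scale and without overlap. Of all genes tested, 37.7% were called higher in this comparison and 40.7% had every library above. Several members overlap other listed genes, namely Phf10 (1600012H06Rik), Pbrm1 (Gnl3 and Smim4 among others), Smarcc1 (Dhx30), Actl6a (Mrpl47), Smarcd3 (Chpf2), Smarcd1 (Gm17241 and Gm17349) and Arid1b (Gm15599), and their values are uncertain in that respect, since whether the counting used strand is not given in the sources used here.

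The promoters of Phf10 and Brd7 are printed as those of the PBAF genes that rose in Smarcb1-RE cells. Phf10 is given at chr17:14961274-14961423 and Brd7 at chr8:88362195-88362344, both on the minus strand (GRCm38.p6, RefSeq). The Phf10 stretch held 5 matches to the GC box, some of them overlapping, and 31 CpG dinucleotides, while that of Brd7 held 2 GC boxes and 17 CpG. RefSeq promoter windows of 300 bases (250 before and 50 after the start) were available for 23 of the 30 members. Their median GC content was 68%, against 52.7% in all 27025 promoters, with a median of 33 CpG against 7. A GC box was present in 22 of the 23 (95.7%, against 35.9% of all promoters) and a CCAAT box in 5 (21.7%, against 37.9%). The set of all promoters was not limited to genes detected in T15. It held the first listed window of each gene, whereas members had the window nearest the annotated start. Subunit genes that rose and subunit genes that fell both carried GC boxes. These matches describe letters in a window and are not binding sites.
Phf10: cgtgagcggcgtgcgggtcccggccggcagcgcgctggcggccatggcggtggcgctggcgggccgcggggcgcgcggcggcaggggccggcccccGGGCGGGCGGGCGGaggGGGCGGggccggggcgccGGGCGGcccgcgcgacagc
Brd7: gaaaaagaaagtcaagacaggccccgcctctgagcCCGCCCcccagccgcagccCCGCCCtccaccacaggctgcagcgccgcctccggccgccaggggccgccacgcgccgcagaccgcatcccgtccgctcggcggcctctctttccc

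The ncBAF complex lacks Smarcb1 and is marked by Brd9 and by either of the GLTSCR proteins Bicra and Bicral. Brd9 measured 71.6, 64.2 and 62.9 CPM in control, 64.2, 65.5 and 62.1 in SAHA, versus 93.3, 94.4 and 92.7 in Smarcb1-RE. SAHA overlapped control (log2 fold change -0.05, adjusted p = 0.395) and Smarcb1-RE lay above both (0.50, SE 0.0501, adjusted p = 1.18e-06, edgeR). Bicral measured 50.5, 64.6 and 65.0 CPM in control, 58.8, 57.2 and 57.5 in SAHA, versus 85.5, 86.4 and 90.0 in Smarcb1-RE. It was higher in Smarcb1-RE (log2 fold change 0.54, SE 0.0765, adjusted p = 2.91e-05), and its value in SAHA was -0.05 (adjusted p = 0.558), or -0.17 without control replicate 1 (adjusted p = 0.00203, edgeR). Bicra measured 25.9, 33.3 and 34.0 CPM in control, 58.9, 67.3 and 64.6 in SAHA, versus 51.9, 51.5 and 53.0 in Smarcb1-RE. In contrast to the other ncBAF genes it rose in both treatments (log2 fold change 1.03, SE 0.0844, adjusted p = 3.5e-07 in SAHA, next to 0.75, SE 0.0854, adjusted p = 3.98e-06 in Smarcb1-RE, edgeR). It was lower in Smarcb1-RE than in SAHA (-0.29, adjusted p = 0.00615), a call that was lost with library totals as the only scaling (-0.13, adjusted p = 0.186, edgeR). Bicra thereby went from 30.8% ± 0.2 of the pair per kilobase of exon in control to 48.7% ± 2.1 under SAHA but to 34% ± 0.35 in Smarcb1-RE (SD, n = 3). The log2 ratio of Bicral to Bicra fell by 1.09 in SAHA, with SAHA libraries apart from the other 6.

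In total, 14 ratios between paralogues were compared in 3 comparisons. Those among the Smarcd, Dpf and Bcl7 genes share members, so they are not independent. Without overlap, 33.8% of all single genes tested lay above and 34.9% below control in SAHA, and 40.4% and 39.1% in Smarcb1-RE. Against SAHA, 40.7% lay above and 39.2% below in Smarcb1-RE. No such share was computed for ratios of other gene pairs. The libraries did not overlap for 9 ratios in SAHA against control, 12 in Smarcb1-RE against control and 10 in Smarcb1-RE against SAHA. Each such ratio reached the smallest p that 3 libraries against 3 allow in a two-sided exact permutation test (p = 0.1, and 0.135 after adjustment over 42 tests), so none could pass a threshold of 0.05. In SAHA the ratio moved by more than 1 on the log2 scale for 5 pairs, namely Dpf1 to Dpf2 (2.07), Dpf3 to Dpf2 (1.94), Smarcd3 to Smarcd1 (1.56), Ss18l1 to Ss18 (1.46) and Bicral to Bicra (-1.09). In Smarcb1-RE it did so for Ss18l1 to Ss18 (1.82), Dpf3 to Dpf2 (1.44), Smarcd3 to Smarcd2 (1.22), Smarca2 to Smarca4 (1.20) and Smarcc2 to Smarcc1 (1.07). Except for the ATPase, Smarcc and GLTSCR pairs, the rarer paralogue in these ratios was at fewer than 10 CPM in every library.

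**Figure D4:**
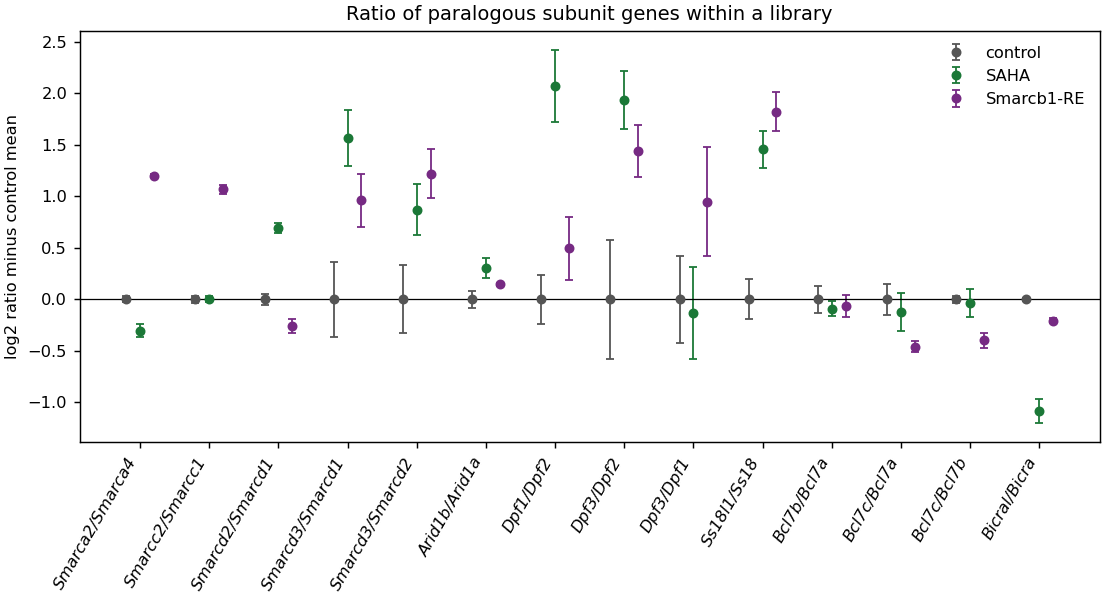
Log2 ratio of paralogous subunit genes within a library, shown relative to the control mean; points are group means and bars SD of 3 libraries. Smarca2 to Smarca4 and Smarcc2 to Smarcc1 stand at 1.20 and 1.07 in Smarcb1-RE with small bars, and Bicral to Bicra at -1.09 in SAHA.

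Other families of ATP-dependent remodellers (ISWI, CHD, INO80, SRCAP and related) were compared as background. Of 35 listed genes, 34 were tested, of which 8 were higher and 20 lower in SAHA (median log2 fold change -0.26) and 11 were higher and 19 lower in Smarcb1-RE (median -0.18). The share of lower genes in SAHA was 58.8%, next to 57.1% of the SWI/SNF members and 34.3% of all genes tested. In Smarcb1-RE the share of lower genes was 55.9% for these remodellers, 35.7% for the SWI/SNF members and 38.6% for all genes. The remodellers called higher made up 23.5% in SAHA and 32.4% in Smarcb1-RE, against 32.6% and 39.2% of all genes. These differences were not tested. Ruvbl1 and Ruvbl2, the AAA ATPases shared by INO80 and SRCAP, fell in both treatments (log2 fold changes -1.10 and -0.48 in SAHA, -1.43 and -1.25 in Smarcb1-RE, all called by edgeR). Among CHD genes, Chd2 rose by 0.75 and 1.48 and Chd7 by 0.59 and 1.61, in SAHA and Smarcb1-RE respectively. The other listed CHD genes were called in Smarcb1-RE but not in SAHA. There, Chd6 and Chd9 were higher (0.92 and 0.65), and Chd1 and Chd8 were lower (-0.22 and -0.14). Smarca5, the ISWI ATPase, rose by 0.62 in SAHA and fell by 0.30 in Smarcb1-RE, and these changes too were called by edgeR.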

How the data were processed

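Total RNA of 9 T15 libraries (directional kit, single-end reads) was analysed from 1 gene table. The authors deposited estimated counts per Ensembl gene, not normalized, of which 52.4% of the values above 0 were not whole (tolerance 1e-06). The submitters' processing notes name Salmon 0.14.1, DESeq2 1.22.2, FastQC 0.11.8, MultiQC 1.7 and GRCm38. Use of strand and division of shared reads are not given in the sources used here. Names, positions and lengths came from GENCODE M21, which held 99.5% of identifiers.

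Estimated counts were rounded and fitted in R 4.3.3 with edgeR 4.0.16 (TMM, filterByExpr with a minimum count of 10, quasi-likelihood test, Benjamini-Hochberg adjustment over 13697 genes, adjusted p under 0.05) in one model of 3 groups. Standard errors were derived from each gene's log2 fold change and F statistic. The common biological coefficient of variation was 5.24%. CPM values are TMM-normalized, and levels between genes were compared per kilobase of summed exons. Paralogue ratios used a prior count of 2 and exact permutation tests. The limit of 3 counts covers counting error only. The test was checked on simulated counts.

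Groups and replicate numbers came from the labels. Replicates were named as biological in the study's methods. Same-numbered libraries did not deviate together (mean correlation across genes -0.00342, against 0.00169 for other pairs). The members and gene lists were chosen with earlier results of these data known. Values in every library are given for Smarcb1, for members called with an absolute log2 fold change of at least 0.5 in any comparison, and for the most and least abundant tested member of each set per length. The promoters shown were chosen after their genes' values were seen, and Ss18l1 was left out because its stretch overlaps exons of Psma7. Alternatives were DESeq2 1.42.0, median-ratio factors, library totals, no filter, a minimum of 10 counts per library, fits of 2 groups alone, a replicate block, an adjusted p under 0.01, an absolute log2 fold change of at least 0.5, each library left out, coding length and a prior count of 0.5. The summed level of 1 further marker list is not reported here.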

Additional observations from a re-analysis of the deposited data

How the results depend on the processing

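No member changed direction past the threshold under any alternative. Requiring an absolute log2 fold change of at least 0.5 moved 4 counts of called members: lower in SAHA against control to 8 (from 16), higher in Smarcb1-RE against control to 8 (from 14), and higher and lower in Smarcb1-RE against SAHA to 9 (from 16) and 4 (from 8). The other counts stayed within 1.5 times. Of 581 member fold changes under other settings, 564 kept their side of the threshold, as did 737 of 756 with a library left out. All 84 and 252 paralogue ratio values were counted as unchanged. Differences near 0, such as Smarcc2 to Smarcc1 in SAHA against control (0.0045), can change sign when a library is left out. The replicate block, which pairs libraries that share only a number, changed 2 of 84 member calls: Smarcc2 in Smarcb1-RE became called (adjusted p = 0.026, edgeR) and Smarcd3 in Smarcb1-RE was lost (adjusted p = 0.0686, edgeR). With library totals as the only scaling, the all-gene median in Smarcb1-RE against control moved from 0.01 to 0.17 and against SAHA from 0.02 to 0.18, the share of calls that were higher from 50.4% to 61% and from 50.6% to 62.1%, and the members called higher and lower to 16 and 9 and to 18 and 6. The log2 fold change of Smarcb1 with a library left out ranged from 4.52 to 5.36 in Smarcb1-RE and from 0.04 to 1.14 in SAHA. Depth limits Smarcb1 in control and SAHA, Bcl11a and Actl6b.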
